A study of Mus musculus with 8 samples.

Results

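The genes of synaptic vesicles and of exocytosis were followed between ribosome-bound RNA of mouse hypocretin neurons and RNA of the surrounding tissue. Their probe sets were taken by gene symbol from the array annotation, for synaptotagmins, syntaxins and syntaxin-binding proteins, VAMPs, SNAPs, RIMs, Munc13s, complexins, synapsins, SV2 proteins, synaptophysin, synaptogyrins, Bassoon and Piccolo. This gave 73 genes of 18193 with a probe set of 1 symbol, and 171 of 45037 probe sets other than controls. The study used translating ribosome affinity purification, in which a transgene tags the ribosomes of a cell type so that the RNA on them can be pulled down. All mice carried the bacterial artificial chromosome line Hcrt JD218, named for the hypocretin gene, on a background of mixed Fvb and c57/bl6j strains. Adult mice of both sexes, 6 to 12 weeks old, gave dissected diencephalon, that is thalamus with hypothalamus, and each sample pooled 5 of them. The groups are 4 immunoprecipitates, holding RNA on tagged ribosomes, and the 4 matching unbound fractions, taken by the study as total RNA of the tissue. 1 Affymetrix array was used per fraction.

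A synaptic vesicle fuses when a SNARE protein on its membrane, a VAMP, zips up with a syntaxin and a SNAP on the plasma membrane. Munc18 proteins (gene names beginning with Stxbp) and Munc13 proteins prepare the SNAREs, RIM proteins tie vesicles and calcium channels to the active zone, and Bassoon and Piccolo are the large scaffolds of that zone. Synaptotagmins sense the calcium that triggers fusion, and complexins hold and then help release the assembled SNAREs. SV2, synaptophysin, synaptogyrin and synapsin sit in or on the vesicle. Hypocretin neurons release both fast transmitter from such vesicles and peptide from dense-core vesicles, whose fusion uses members of the same families.

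Both groups come from the same tagged mice, and the arrays include no mock precipitate from untagged animals. The fractions differ in cell type and in ribosome binding at once, and these cannot be told apart. In these bulk samples fewer cells of a type and less RNA per cell cannot be told apart either. The preparation was enriched for the labelled cells. The log2 value of Hcrt was 15.36 ± 0.17 (SD, n = 4) in the bound RNA and 10.33 ± 0.55 (SD, n = 4) in the unbound RNA, and all 7 hypocretin neuron markers were higher. The marker lists were chosen with earlier results of these data known, so the count of 7 is no independent test of enrichment. Markers of other cells were lower but present. The 7 astrocyte markers averaged 6.76 to 8.54 on the log2 scale across immunoprecipitate arrays against 10.31 to 10.44 across unbound ones, and 6 tested of 7 oligodendrocyte markers 10.05 to 11.41 against 12.88 to 13.20. The 5 GABAergic markers averaged 8.47 to 9.71 against 11.37 to 11.90. All 5 thalamic, 5 tested of 6 microglial and 2 tested of 4 endothelial and mural markers were lower too, and Lef1, C1qa, Cx3cr1 and Cldn5 among them lay under a linear value of 50 on all immunoprecipitate arrays. The 3' minus 5' signal, an index of RNA breakdown, was for Actb 3.71 ± 0.46 among immunoprecipitates against 3.39 ± 0.33 among unbound fractions (SD, n = 4 arrays, two-sided exact permutation p = 0.31), and for Gapdh 2.80 ± 1.14 and 2.34 ± 0.68 (exact permutation p = 0.46).

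For the sequence context, the 250 bases before the start site are shown for the active zone scaffolds Bsn and Pclo, which fell together, and for Syngr1, a vesicle protein gene that has a probe set among the few that rose. They come from RefSeq on GRCm38.p6, 5′ to 3′ on the gene's strand, and capitals mark the GC box GGGCGG on either strand, the letters bound by Sp-family factors. Bsn lies at chr9:108190384-108190633 on the minus strand, Pclo at chr5:14514668-14514917 on the plus strand and Syngr1 at chr15:80091084-80091333 on the plus strand.
Bsn: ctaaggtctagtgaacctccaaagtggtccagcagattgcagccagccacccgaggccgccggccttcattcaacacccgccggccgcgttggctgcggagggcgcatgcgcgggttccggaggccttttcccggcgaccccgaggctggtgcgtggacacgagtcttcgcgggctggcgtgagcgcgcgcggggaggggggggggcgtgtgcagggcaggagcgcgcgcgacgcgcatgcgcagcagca
Pclo: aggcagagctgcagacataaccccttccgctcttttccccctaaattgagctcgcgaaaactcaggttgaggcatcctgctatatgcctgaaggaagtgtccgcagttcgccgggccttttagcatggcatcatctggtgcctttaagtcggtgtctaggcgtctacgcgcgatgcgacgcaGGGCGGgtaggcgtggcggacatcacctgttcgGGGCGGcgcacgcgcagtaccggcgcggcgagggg
Syngr1: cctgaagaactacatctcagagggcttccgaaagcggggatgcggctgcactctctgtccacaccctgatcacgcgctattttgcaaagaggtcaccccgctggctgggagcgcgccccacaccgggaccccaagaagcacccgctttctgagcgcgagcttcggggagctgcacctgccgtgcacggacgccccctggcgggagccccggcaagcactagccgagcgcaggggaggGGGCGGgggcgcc

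The Pclo window holds 2 matches, the Syngr1 window 1 and the Bsn window 0. Of the 61 tested member genes 48 have an entry in the promoter table, with 59 windows, and 62.7% of these windows hold the GC box, against 32.7% of all 32851 windows of that length. That background holds all genes of the promoter table, tested on these arrays or not, and no share over all tested genes was taken. Among members the share was 63.6% of 33 windows for genes that fell and 61.5% of 26 for genes that were not called. The CRE motif TGACGTCA, searched on both strands, was in 2 of the 59 windows and in 1.55% of all windows. These are matches of letters and were not tested as binding sites.

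Most members were lower in the immunoprecipitate or were not called, and few were higher. A probe set was tested if it reached a linear value of 50 (5.64 on the log2 scale) on at least 4 arrays, and was called at a limma adjusted p under 0.05, Benjamini-Hochberg over all 17865 tested probe sets, and at least 2-fold. 119 of the 171 member probe sets and 61 of the 73 genes passed the filter. 59 member probe sets were lower (49.6%, against 45.1% of all tested) and 5 higher (4.20%, against 4.88%). By gene, each taken from its brightest tested probe set, 32 of 61 were lower (52.5%, against 44.2% of all 10398 tested genes), 1 was higher (1.64%, against 4.74%) and 28 were not called. On this scale the shares lie near the background. The median member gene changed by -1.13 on the log2 scale and the median of all tested genes by -0.85, with 28 members above that value and 33 below it. The arrays of the groups did not overlap for 33 members that were lower, where 50.6% of all tested genes lay apart in that direction, and for 1 that was higher, against 6.53%. By probe set 63 lay apart lower (50.1% of all) and 4 higher (6.85%).

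The split between lower and higher depended on how the groups were put on a common scale, since the authors normalized each group on its own. The values here were shifted by 1 constant per group that equalises 18 biotinylated controls. With every array centred on its own median, a step that moves the median of all probe sets by 0.92, 16 member genes were lower (26.2%, against 19.6% of all tested genes) and 7 higher (11.5%, against 20.4%). By probe set, 31 members were lower (21.2% of all) and 16 higher (20.5%). The 7 genes were Syt5, Syt4, Syt13, Syt17, Stx3, Syngr1 and Syngr3. Quantile normalization, which moves the median by 0.84, gave 20 genes lower (32.8%, against 20.5% of all) and 8 higher (13.1%, against 16.5%), and by probe set 34 lower (20.8%) and 19 higher (17.3%). With 24 poly-A controls as the reference, a shift of -1.97, 60 were lower (98.4%, against 94.5% of all) and 0 higher (0.673%) by limma, and 0 were higher at an unadjusted p under 0.05. By probe set 113 were lower (94.2%) and 0 higher (0.700%). Of the 32 genes that fell on the biotinylated scale, 15 fell on all 4 scales named here. These were Bsn, Pclo, Cplx2, Rims2, Unc13c, Snap23, Snap29, Stxbp3, Stxbp5l, Stxbp6, Sv2b, Syn3, Syt2, Syt16 and Vamp5. Of these, Snap23 and Snap29 entered the test through the unbound arrays alone, so their fall was set by the filter.

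**Figure D1:**
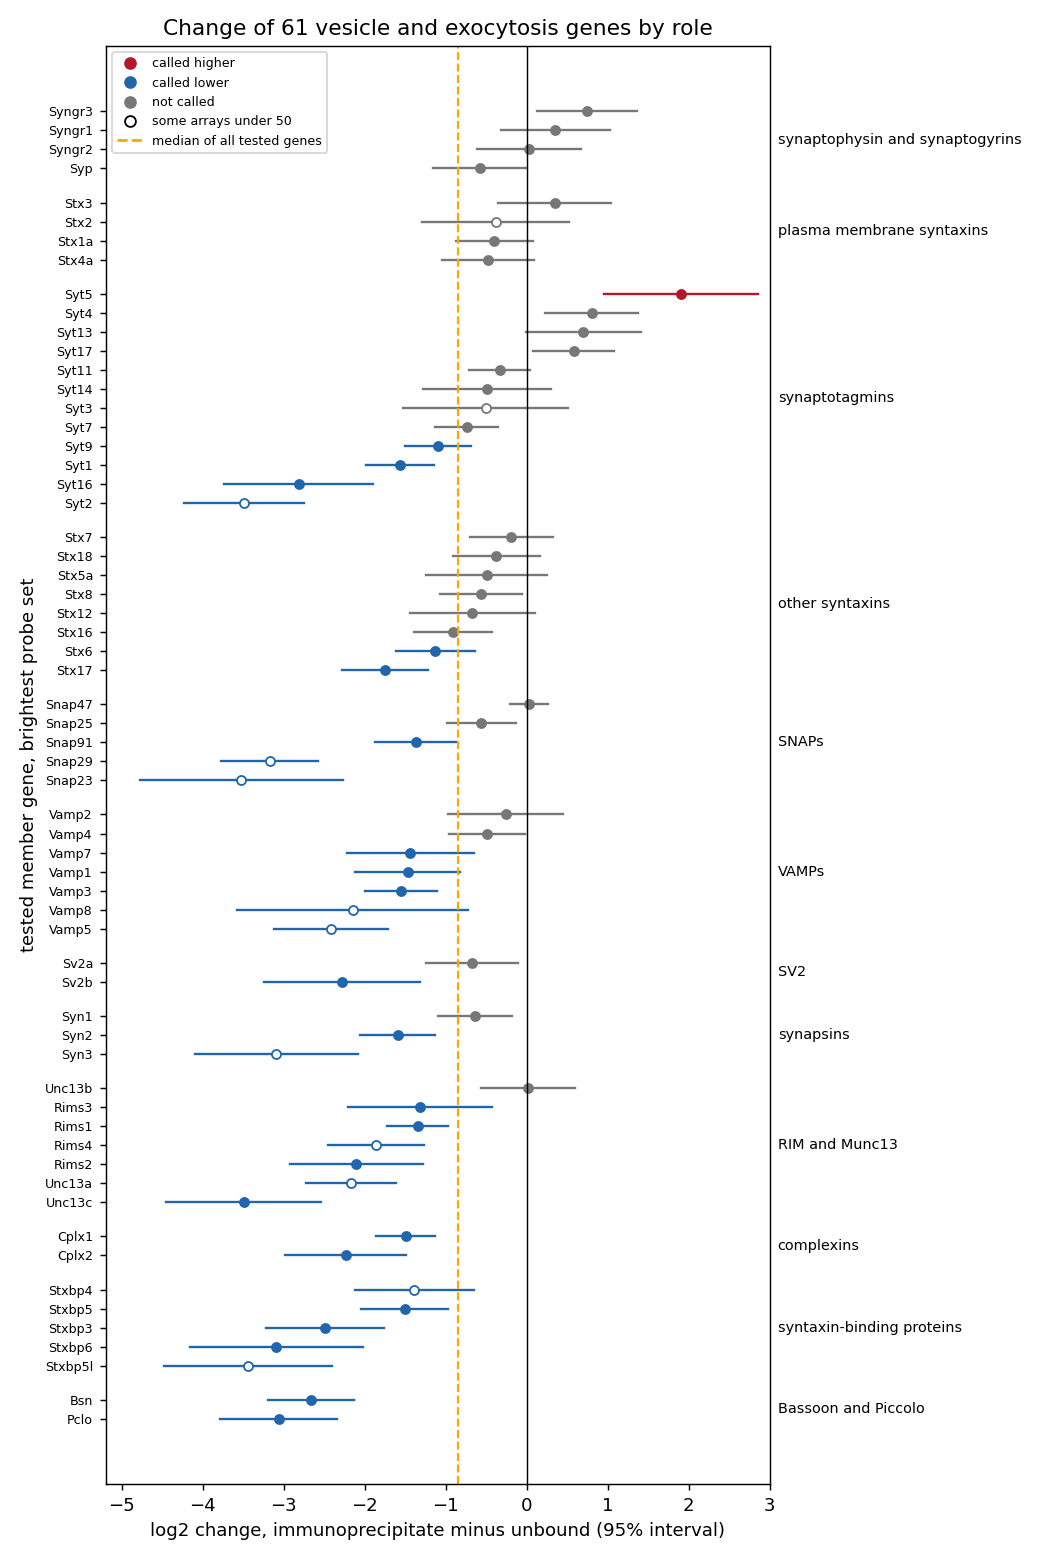
Each point is the log2 change (immunoprecipitate minus unbound, n = 4 arrays each) of a tested member gene with its 95% interval, grouped by role. The dashed line is the median of all tested genes, -0.85. Synaptophysin, the synaptogyrins and the plasma membrane syntaxins lie to its right, and Bassoon, Piccolo, the complexins and the syntaxin-binding proteins to its left.

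The SNAREs of the plasma membrane are given by family, the syntaxins first. Of 4 tested plasma membrane syntaxins 0 were called by limma, 0 had an unadjusted p under 0.05, and their median was -0.39. Stx1a, the neuronal syntaxin of transmitter release, stood at 10.95, 11.41, 11.40 and 10.92 on the immunoprecipitate arrays and 11.23, 11.92, 11.76 and 11.36 on the unbound arrays (log2 values, replicates 1 to 4 throughout). The groups overlap, and the change of -0.40 had an interval from -0.88 to 0.08 (limma adjusted p = 0.13). Stx1a was lower in 4 of 4 preparations, and with the replicate block its limma adjusted p was 0.024, still under 2-fold. Stx2, Stx3 and Stx4a, which serve other secretory routes as well, gave -0.38, 0.34 and -0.48. A second Stx3 probe set gave a log2 change of -2.36 (limma adjusted p = 0.0003), so the value for Stx3 depends on the probe set.

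Among the SNAPs, Snap23, the widely expressed relative of Snap25, and Snap29, which acts in membrane traffic inside the cell, were lower. Snap23 stood at 5.55, 5.36, 3.23 and 5.34 on the immunoprecipitate arrays, all under the minimum, and 8.86, 7.53, 7.92 and 9.26 on the unbound arrays. It was at least 6.77-fold lower (log2 change -3.52 ± 0.56 SE, limma adjusted p = 4e-04). Snap29 was at least 4.72-fold lower, again with all immunoprecipitate arrays under the minimum. Both passed the filter through the unbound arrays, so they had to differ. Snap25, the neuronal partner of syntaxin, read 14.45, 14.27, 14.04 and 14.66 in the immunoprecipitates and 15.13, 14.54, 14.70 and 15.29 in the unbound fraction. These groups overlap, although 4 of 4 preparations were lower, and its change of -0.56 (interval -0.99 to -0.13) did not reach 2-fold. Snap47 lay at 14.72, 14.86, 14.89 and 14.93 against 14.65, 14.84, 14.91 and 14.88. It showed the narrowest interval of all members, from -0.20 to 0.27 around 0.03. Snap91, a clathrin assembly protein that the symbol rule takes in although it is no SNARE, fell 2.58-fold. Its call was lost with median centring.

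Of the VAMPs, the vesicular SNAREs, 5 of 7 fell, against 44.2% of all tested genes. Of these 5, Vamp5 alone was called lower on all 4 scales. Vamp2, the main VAMP of forebrain synaptic vesicles, read 12.91, 13.50, 13.36 and 14.39 in the immunoprecipitates and 13.52, 13.68, 13.51 and 14.49 in the unbound fraction. The groups overlap, 4 of 4 preparations were lower and replicate 4 is the highest in both, and the change of -0.26 (interval -0.97 to 0.45) was not called. A second Vamp2 probe set gave 1.34 (interval -0.06 to 2.74, limma adjusted p = 0.086), also not called. Vamp1, the VAMP more common in brainstem and spinal neurons, fell 2.77-fold (limma adjusted p = 0.0014) and Vamp3, the broadly expressed cellubrevin, 2.94-fold on its brightest probe set, with 3 of 3 probe sets lower. Vamp5, best known from muscle, stood at 6.02, 6.01, 5.18 and 5.30 against 8.005, 8.07, 8.60 and 7.52 and was at least 4.67-fold lower. Vamp7 fell 2.71-fold and Vamp8 was at least 3.67-fold lower, both of late endosomes and lysosomes, and in both the groups overlap. The Vamp8 call was lost without both arrays of replicate 2 or of replicate 3, with a higher minimum, and with median centring or quantile normalization. Vamp1 and Vamp7 also lost their calls with median centring or quantile normalization, and Vamp3 lost its call with median centring. A second Vamp7 probe set gave -0.71 and was not called. Vamp4 of the trans-Golgi network gave -0.49 on its brightest probe set and was not called. Of its other probe sets, 1 gave 0.28, not called, and the dimmest gave -1.325 and was called lower (limma adjusted p = 0.0011).

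All 5 tested syntaxin-binding proteins were lower, against 44.2% of all tested genes, with a median of -2.49. Stxbp3, a Munc18 form outside the synapse, fell 5.61-fold, and Stxbp5, or tomosyn, which competes with VAMPs for the SNARE complex, fell 2.84-fold. Its relative Stxbp5l stood at 7.36, 6.94, 5.38 and 5.41 on the immunoprecipitate arrays and 9.81, 9.98, 9.19 and 9.89 on the unbound arrays. The groups lie well apart, and it was at least 10.03-fold lower (limma adjusted p = 0.00015) with 3 of 3 probe sets called. Stxbp6, or amisyn, another syntaxin binder, read 11.05, 9.77, 9.55 and 8.21 against 12.68, 13.01, 12.75 and 12.51 and fell 8.53-fold (log2 change -3.09 ± 0.48 SE, limma adjusted p = 0.00033). The immunoprecipitate arrays spread over more than 2 log2 units there, with replicate 1 the highest and replicate 4 the lowest. Stxbp4 was at least 2.55-fold lower. The calls of Stxbp4 and Stxbp5 were lost with median centring and with quantile normalization.

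The priming factors and tethers of the active zone were lower in 6 of 7 genes, against 44.2% of all tested genes. Unc13c, a Munc13 best known from the cerebellum, read 9.20, 7.34, 7.37 and 7.11 in the immunoprecipitates and 11.58, 10.91, 11.14 and 11.37 in the unbound fraction. It fell 11.3-fold (log2 change -3.50 ± 0.43 SE, limma adjusted p = 8.7e-05), the largest fold among members measured on all arrays, and replicate 1 stands above the other immunoprecipitates. Unc13a, the main Munc13 of excitatory synapses, was under the minimum on all 4 immunoprecipitate arrays and was at least 1.84-fold lower, so it too passed the filter through the unbound arrays. Unc13b gave 0.02 with an interval from -0.56 to 0.60. Rims1, a central scaffold of the release site, stood at 10.07, 10.23, 10.36 and 10.03 against 11.50, 11.52, 11.40 and 11.67 and fell 2.55-fold (limma adjusted p = 9.1e-05). Rims2 fell 4.30-fold with 3 of 3 probe sets called, and Rims4, a short form, was at least 3.00-fold lower. Of the 6 genes, Rims2 and Unc13c were called lower on all 4 scales. Rims1, at -0.42 after median centring, Rims3 and Rims4 lost their calls with median centring and with quantile normalization. Unc13a lost its call with quantile normalization.

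Rims3 was the 1 member whose probe sets were called in opposite directions. Its brighter probe set read 9.10, 9.54, 9.45 and 10.78 in the immunoprecipitates and 10.46, 10.71, 11.16 and 11.81 in the unbound fraction, and fell 2.49-fold (limma adjusted p = 0.015) with overlapping groups. The dimmer one read 6.74, 8.02, 7.69 and 7.69 against 5.60, 6.24, 5.55 and 5.47 and was at least 3.33-fold higher (limma adjusted p = 0.00074). Without both arrays of replicate 2 or of replicate 3 the lower call was lost, at limma adjusted p = 0.054 and 0.084.

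The giant scaffolds Bassoon and Piccolo both fell. Bsn read 6.93, 6.92, 7.04 and 6.32 in the immunoprecipitate against 9.36, 9.55, 9.58 and 9.39, a 6.36-fold fall. Pclo stood at 7.93, 6.96, 7.003 and 6.41 against 10.05, 10.46, 9.86 and 10.19, an 8.35-fold fall (log2 change -3.06 ± 0.32 SE, limma adjusted p = 3.8e-05). In both genes all immunoprecipitate arrays lie more than 1 log2 unit under all unbound arrays. A second Pclo probe set was at least 8.32-fold lower.

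**Figure D2:**
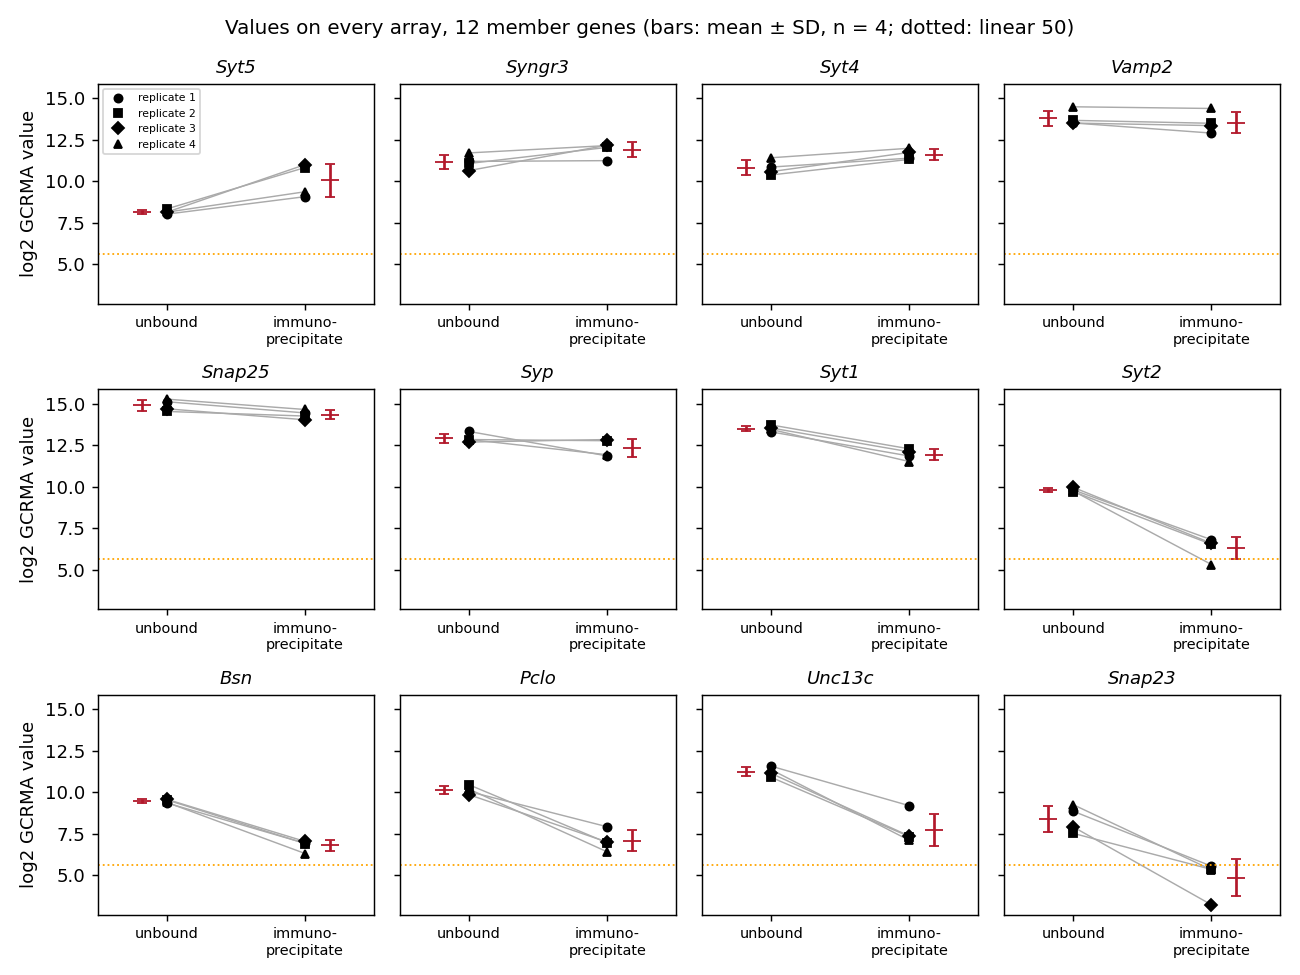
Log2 values of 12 member genes on the 4 unbound and 4 immunoprecipitate arrays, with lines joining fractions of the same preparation, red bars for mean ± SD (n = 4) and a dotted line at the linear value of 50. Syt5 lies higher in all 4 immunoprecipitates, Vamp2, Snap25 and Syp overlap between groups, and Syt2, Bsn, Pclo, Unc13c and Snap23 lie lower in all 4.

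The synaptotagmins ranged more widely than any other group, from -3.49 to 1.91. 4 of 12 tested genes were lower, against 44.2% of all tested genes, 1 was higher, against 4.74%, and 7 were not called. Syt5, a calcium sensor of dense-core vesicles and of some synaptic vesicles, was the 1 member gene called higher. It stood at 9.08, 10.83, 11.01 and 9.37 in the immunoprecipitates and 8.03, 8.34, 8.14 and 8.14 in the unbound fraction. The groups do not overlap, and replicates 2 and 3 lie highest. The rise was 3.76-fold (log2 change 1.91 ± 0.43 SE, limma adjusted p = 0.0029), was 2.83 on the log2 scale after median centring, and was absent on the poly-A controls, at -0.06.

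Syt2, a fast calcium sensor used by many brainstem and inhibitory neurons, stood at 6.81, 6.54, 6.60 and 5.32 against 9.81, 9.71, 9.97 and 9.75 and was at least 10.7-fold lower (limma adjusted p = 2.1e-05). Syt1, the fast sensor of most forebrain synapses, read 11.86, 12.29, 12.11 and 11.52 against 13.31, 13.73, 13.55 and 13.46 and fell 2.96-fold. Syt16, which lacks calcium binding, fell 7.04-fold and Syt9, another fast sensor, 2.14-fold. The Syt1 call was lost with median centring, and the Syt9 call with median centring or quantile normalization. Syt7, the slow sensor of asynchronous and dense-core release, gave -0.74 on its brightest probe set and was not called, while its other probe sets were lower by 1.19 and 2.74 on the log2 scale.

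The remaining synaptotagmins lay above the median of all genes. Syt4, found on peptide vesicles, read 11.40, 11.32, 11.75 and 11.99 in the immunoprecipitates and 10.86, 10.39, 10.59 and 11.42 in the unbound fraction. It was higher in 4 of 4 preparations, but its change of 0.80 (interval 0.23 to 1.37, limma adjusted p = 0.019) did not reach 2-fold. Without unbound replicate 4 it was called higher, which makes 2 genes higher in place of 1. Syt17 gave 0.58 on its brightest probe set (limma adjusted p = 0.046), under 2-fold, and a dimmer probe set was at least 2.70-fold higher with overlapping groups. Syt13 gave 0.70 and was not called. Syt11, a non-calcium-binding form bright on these arrays, stood at 12.73, 12.97, 12.84 and 13.07 against 13.02, 13.11, 13.15 and 13.66, a change of -0.33 that was not called, as in its other 4 probe sets. It was lower in 4 of 4 preparations, with a limma adjusted p of 0.03 under the replicate block and 0.11 without it. Syt3 and Syt14 gave -0.51 and -0.49.

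Both tested complexins fell. Cplx1, the complexin of many inhibitory and subcortical neurons, read 13.38, 13.30, 13.17 and 12.66 in the immunoprecipitates and 14.58, 14.58, 14.60 and 14.71 in the unbound fraction, a 2.81-fold fall (limma adjusted p = 4.6e-05). Cplx2, more common in excitatory forebrain neurons, read 8.92, 10.06, 9.86 and 9.54 against 11.04, 12.27, 12.30 and 11.71 and fell 4.71-fold (limma adjusted p = 0.00028). All 6 tested complexin probe sets were called lower. After median centring Cplx1 gave -0.57 and lost its call, while Cplx2 gave -1.31 and kept it.

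Synaptophysin and the synaptogyrins, proteins that span the vesicle membrane, had the highest median of all roles. Of 4 tested genes for synaptophysin and the synaptogyrins 0 were called by limma on their brightest probe sets, 1 had an unadjusted p under 0.05, the median was 0.19, and all 4 lay above the median of all genes. Syp, the abundant vesicle protein synaptophysin, read 11.87, 12.78, 12.85 and 11.93 in the immunoprecipitates and 13.34, 12.85, 12.70 and 12.85 in the unbound fraction, overlapping, with a change of -0.58 (interval -1.16 to 0.00). Syngr3 stood at 11.25, 12.05, 12.18 and 12.16 against 11.20, 11.08, 10.65 and 11.71. It was higher in 4 of 4 preparations, with a change of 0.75 (interval 0.13 to 1.36, limma adjusted p = 0.038) that did not reach 2-fold.

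A dimmer Syngr3 probe set read 7.13, 8.44, 8.48 and 8.11 against 6.43, 5.95, 5.62 and 6.96 and was at least 3.45-fold higher (limma adjusted p = 0.0025). Syngr1, the neuronal synaptogyrin, gave 0.35 on its brighter probe set, not called. Its second probe set read 8.20, 9.15, 9.66 and 8.46 against 6.77, 6.91, 5.82 and 5.89, with all 4 immunoprecipitates higher, and rose 5.74-fold (limma adjusted p = 0.00035). For both synaptogyrins the probe sets point the same way and differ in size. Syngr2, found outside neurons too, gave 0.03. Synpr and Sypl, relatives of synaptophysin that the symbol rule leaves out, were called lower. They gave log2 changes of -1.15 and -1.72 (limma adjusted p = 0.0011 and 0.00079). After median centring they gave -0.22 and -0.80 and were not called.

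SV2 proteins and synapsins each had a member that fell and a member that was not called. Sv2a, the widely used vesicle glycoprotein, read 11.30, 11.44, 11.59 and 10.64 against 12.40, 11.56, 11.76 and 11.97, a change of -0.68 that did not reach 2-fold, with overlapping groups and 4 of 4 preparations lower. Sv2b read 7.42, 7.28, 7.38 and 5.72 against 10.06, 8.88, 8.94 and 9.05 and fell 4.87-fold (limma adjusted p = 0.0011). Synapsins tether vesicles into the reserve pool. Syn1 gave -0.64, under 2-fold. Syn2 stood at 10.81, 10.92, 10.79 and 11.01 against 12.78, 12.20, 12.07 and 12.85 and fell 3.02-fold, with 2 of its 4 probe sets called lower. After median centring Syn2 gave -0.67 and lost its call. Syn3 read 6.96, 5.30, 5.75 and 4.62 against 8.36, 9.07, 9.04 and 8.52 and was at least 6.75-fold lower (limma adjusted p = 0.00024).

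The other syntaxins, which serve the Golgi, endosomes, the endoplasmic reticulum and autophagosomes rather than the synapse, were mostly not called, with a median of -0.62. Stx17, the autophagosomal syntaxin, read 8.08, 7.74, 8.23 and 8.31 in the immunoprecipitates and 10.06, 9.82, 9.43 and 10.06 in the unbound fraction and fell 3.37-fold (limma adjusted p = 0.00016). A dimmer Stx17 probe set gave 0.05. Stx6 of the trans-Golgi network stood at 11.97, 11.84, 12.02 and 11.88 against 12.69, 13.42, 13.50 and 12.63 and fell 2.19-fold (limma adjusted p = 0.0013), with 2 of 5 probe sets called lower. Without unbound replicate 3, or without both arrays of replicate 2, Stx6 gave -0.98 and missed 2-fold. After median centring Stx6 gave -0.21 (limma adjusted p = 0.46) and Stx17 gave -0.83. Both genes lost their calls there and with quantile normalization. Stx5a, Stx7, Stx8, Stx12, Stx16 and Stx18 ran from -0.91 to -0.19 and were not called.

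12 member genes were not tested. Stxbp2, Syngr4, Syt6, Syt8, Syt10, Cplx4, Stx11, Stx19, Unc13d and Sv2c lay under the minimum on all 8 arrays in all their probe sets, while Cplx3 reached it on 3 and Syt12 on 1 of the unbound arrays. Of the tested genes 49 reached it on all 8 arrays, and 3 (Unc13a, Snap23 and Snap29) on no immunoprecipitate array. There was no tested gene that missed it on all unbound arrays.

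39 genes had more than 1 tested probe set. In 27 of them all probe sets had the same call, in 11 some were called in a direction and others not, and in 1, Rims3, the calls were opposite. The 5 probe sets called higher belong to Syt5, Syngr1, Syngr3, Syt17 and Rims3, and in the last 4 they are dimmer than the probe set that stands for the gene. Averaging all tested probe sets of each gene gave 4 genes higher, with Syngr1, Syngr3 and Syt17 joining Syt5, while Stx3 and Syt7 were newly called lower and Rims3, Stx17 and Stx6 lost their calls. Which part of the transcript each probe set covers was not analysed here.

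**Figure D3:**
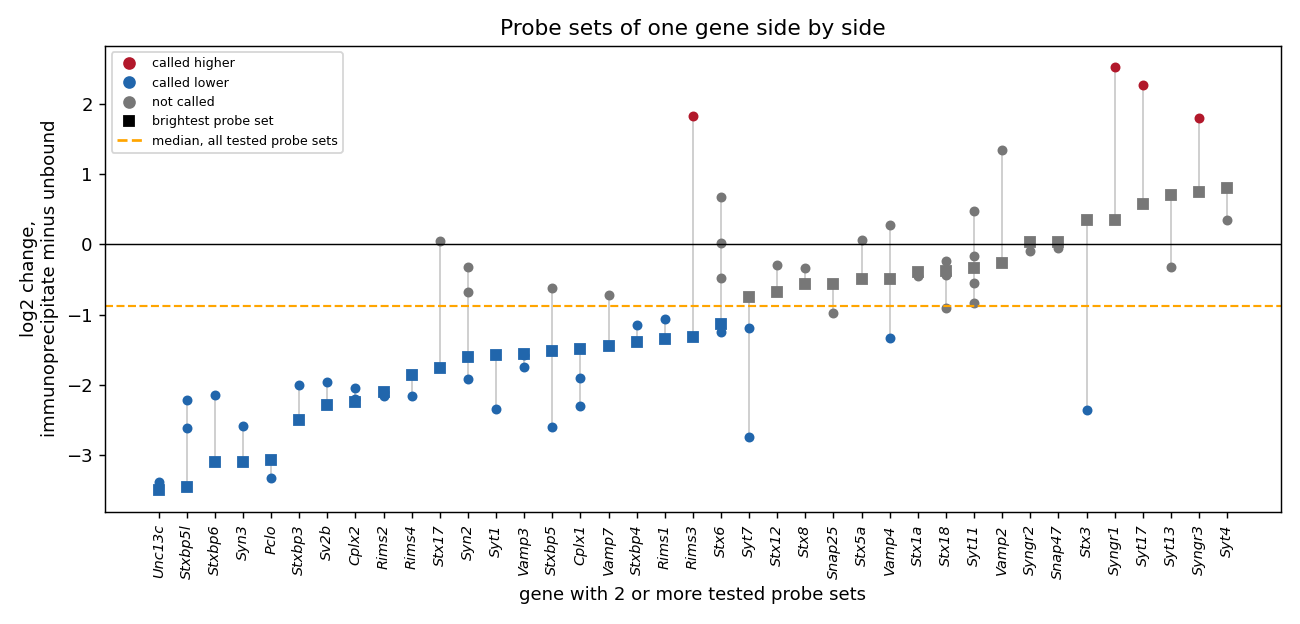
Log2 change (immunoprecipitate minus unbound) of every tested probe set for the 39 genes with at least 2, ordered by the brightest (square), with colours for the limma call and a dashed line at the median of all tested probe sets, -0.87. Unc13c, Pclo and Cplx2 agree closely between probe sets, whereas Rims3, Stx3 and Syngr1 spread over 2 log2 units or more.

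Paralogues were compared directly, because the difference between the changes of 2 genes does not move when a group is shifted by a constant. Of 16 listed pairs 13 had both genes tested. In 2 of them, Snap25 with Snap23 and Unc13a with Unc13b, a gene lay under the minimum on all immunoprecipitate arrays and passed the filter through the unbound arrays, so their separation is no test outcome. The difference was taken on each array and compared over the 8 arrays by a two-sided exact permutation test, which cannot go below p = 0.0286. Of the 11 pairs measured in both groups, 5 reached that smallest exact p, each with fully separate groups. Their exact p, Benjamini-Hochberg adjusted, was 0.0531 over all 13 pairs and 0.0629 over the 11, so 0 pairs passed. The 5 were Syt1 with Syt2, Sv2a with Sv2b, Syt4 with Syt11, Syn1 with Syn2 and Syt7 with Syt1. Each gene was taken from its brightest probe set. The other Syt7 probe sets changed by -1.19 and -2.74, against -1.57 for Syt1. The other tested Syn2 probe sets changed by -1.91, -0.32 and -0.68, against -0.64 for Syn1. The order within both of these pairs therefore depends on the probe set.

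Relative to the unbound mean, the log2 difference between Syt1 and Syt2 was 1.34, 2.05, 1.81 and 2.50 on the immunoprecipitate arrays, a mean of 1.92 ± 0.48 (SD, n = 4) in favour of Syt1. Sv2a exceeded Sv2b by 1.61 ± 0.44, Syt4 exceeded Syt11 by 1.13 ± 0.27 and Syn1 exceeded Syn2 by 0.95 ± 0.29 in the same measure. The differences of Vamp1 against Vamp2 (-1.21 ± 1.22, exact p = 0.114), Rims1 against Rims2 (0.76 ± 0.79, exact p = 0.200), Cplx1 against Cplx2 (0.74 ± 0.63, exact p = 0.171) and Bsn against Pclo (0.39 ± 0.48, exact p = 0.229) were within or near the spread of the arrays. Vamp3 against Vamp2 gave -1.30 ± 0.76 and Syngr1 against Syngr3 -0.39 ± 0.11, each at an exact p of 0.0571.

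**Figure D4:**
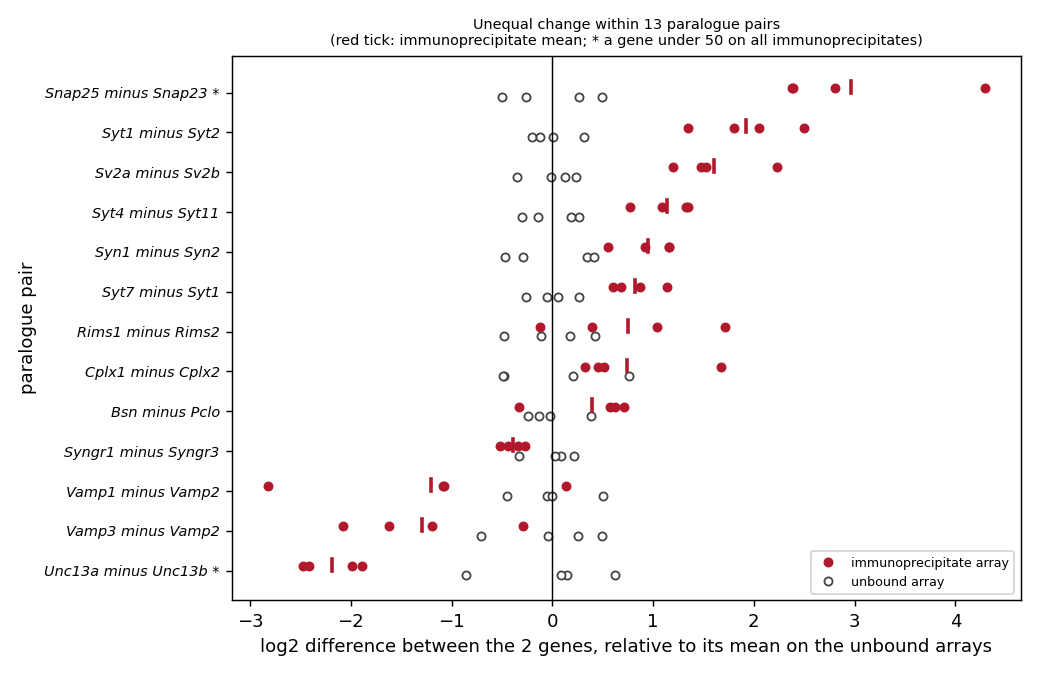
For 13 paralogue pairs, the log2 difference between the brightest probe sets of the 2 genes on each array, relative to the mean of the unbound arrays. Red points are immunoprecipitates, open points unbound fractions and red ticks immunoprecipitate means. Among the 11 pairs measured in both groups, 5 show fully separate groups, with means from 0.82 for Syt7 minus Syt1 to 1.92 for Syt1 minus Syt2. In the 2 pairs with an asterisk a gene lay under the minimum on all immunoprecipitate arrays, so the plotted sizes are uncertain.

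Longer member genes were lower more often. Genomic lengths from RefSeq on GRCm38.p6 were found for all 61 tested members. Of the 31 members of up to 47.3 kb, their median length, 10 were lower and 1 higher, with a median change of -0.50. Of the 30 longer ones 22 were lower and 0 higher, with a median of -1.58. All tested genes divided at that length showed the same pattern, with 34.9% of 7016 shorter and 63.4% of 3347 longer genes lower and medians of -0.57 and -1.40. Across the 61 members, which share arrays and are not independent replicates, the change had a Pearson r of -0.47 with log10 length and a Spearman rho of -0.46, against -0.33 and -0.36 over 10363 tested genes. Members tended to be long, since 32.3% of all tested genes exceed 47.3 kb. Unc13c at 529 kb, Syn3 at 450 kb and Pclo at 349 kb fell strongly, Rims1 at 520 kb and Syt1 at 513 kb less so, while Vamp2 at 3.85 kb and Syngr3 at 4.86 kb were not called. Other members ran against this pattern. Vamp8 at 5.45 kb and Vamp5 at 12.4 kb were short and fell, Vamp8 with overlapping groups. Snap29 at 24.8 kb and Snap23 at 33.6 kb were short and lower too. Both passed the filter through the unbound arrays alone, so their fall was set by the filter. They are among the 10 shorter genes counted as lower, and Unc13a, which passed in the same way, is among the 22 longer ones. Unc13b at 219 kb and Stx8 at 241 kb were long and were not called. The part of length in these changes was not tested.

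**Figure D5:**
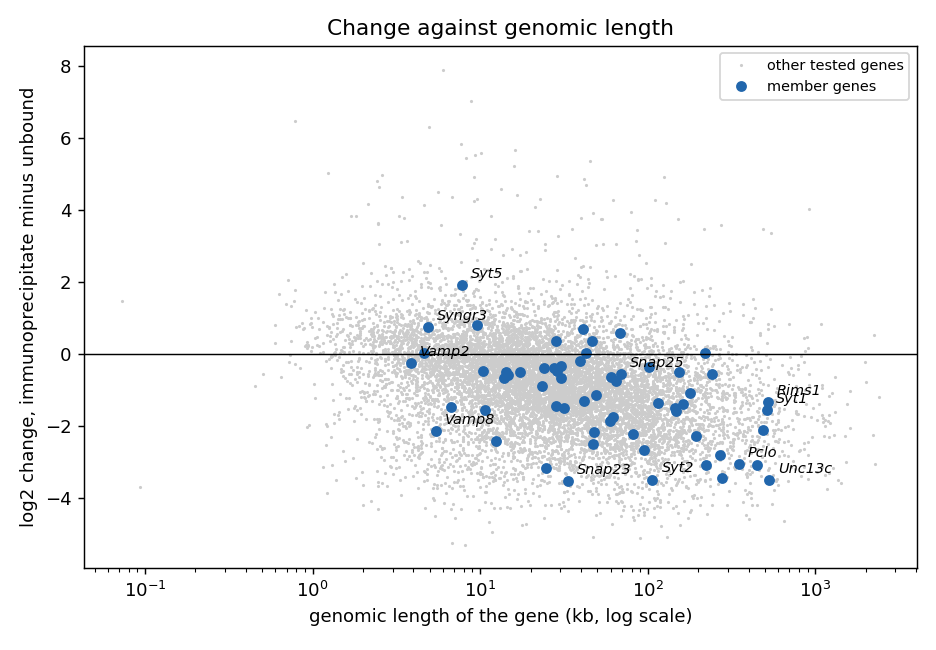
Log2 change (immunoprecipitate minus unbound) against genomic length in kb on a log axis, with the 61 member genes in blue over all other tested genes in grey. Long members include Unc13c, Pclo and Syt2 at changes of -3.50, -3.06 and -3.49, and the short members Syngr3 and Syt5 lie above 0.

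On average, the members that fell moved between immunoprecipitate arrays with the markers of other cells. The mean of the 32 lower genes was 8.72, 8.47, 8.21 and 7.96 on the immunoprecipitate arrays of replicates 1 to 4 and 10.53, 10.52, 10.49 and 10.52 on the unbound arrays. The astrocyte markers averaged 8.54, 7.98, 7.40 and 6.76 on the same immunoprecipitate arrays, the thalamic markers 9.01, 8.28, 8.14 and 6.46 and the hypocretin neuron markers 12.46, 12.84, 12.92 and 13.17. Replicate 1 thus had the most signal of other cells and of the lower members, and replicate 4 the least. Without both arrays of replicate 1, and without both of replicate 4, the same 33 member genes were called. The part of RNA from other cells in these values was not tested.

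The wider release cycle was described by 54 genes that are not members, of which 50 were tested. 30 fell (60.0%, against 44.2% of all tested genes) and 3 rose (6.00%, against 4.74%), with a median of -1.17 against -0.85. Rab3b, a Rab protein of secretory vesicles, rose from 8.45 to 11.50 on the log2 scale (log2 change 3.06 ± 0.41 SE, limma adjusted p = 0.00013), and it was the 1 listed gene still called higher on the poly-A controls. Ap2s1, the small subunit of the clathrin adaptor, rose by 1.35 and Syndig1, a synapse protein, by 1.08, the latter with overlapping groups. Of 4 genes of SNARE disassembly, Nsf fell by 1.83, Napg by 1.53 and Napb by 1.07 on the log2 scale, and Napa at -0.52 was not called. None of these 4 was called after median centring, where Nsf gave -0.90, Napg -0.60, Napb -0.14 and Napa 0.40 (limma adjusted p from 0.0034 to 0.56). The endocytic scaffold Itsn1 gave -2.69, and was called lower also after median centring, at -1.77. Of the dynamins, which pinch off vesicles, Dnm3 at -1.90 and Dnm1 at -1.14 fell and Dnm2 at -0.16 was not called. The clathrin heavy chain Cltc fell by 1.70 on the log2 scale, whereas the light chains Clta and Cltb gave -0.13 and 0.25. The dynamins and Cltc were not called after median centring, and Cltb was then called higher. Rab3a, the main Rab of synaptic vesicles, gave -0.27 and was not called. After median centring 7 of the 50 genes were higher (14%, against 20.4% of all) and 5 lower (10%, against 19.6%).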

How the data were processed

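Gene expression was measured on 8 Affymetrix arrays, 4 immunoprecipitates and 4 unbound fractions. The deposited values are log2 values per probe set, from two-cycle amplified RNA, made with GCRMA per the submitters' processing notes (version not given in the sources used here) and normalized by the authors within each group, per the design text. A linear 50 was reached by 33.6% to 34.8% of probe sets per immunoprecipitate and 40.5% to 40.9% per unbound fraction. The number of arrays limits the precision.

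1 constant per group equalised 18 biotinylated controls, which differed by 0.02, a step the design text recommends. 64 control probe sets were left out. Differences were fitted with limma 3.58.1 in R 4.3.3 (lmFit, eBayes with trend, no block), checked on simulated data. Where arrays lay under 50, values were raised to 50 for the fold, which is then "at least". Gene names came from the platform annotation, in which 34945 probe sets had 1 symbol, 932 several and 9160 were not listed. A gene was represented by its tested probe set with the highest mean.

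Replicate numbers join fractions of 1 preparation, and same-numbered arrays deviated together, with correlations of 0.46, 0.32, 0.28 and 0.58. Values on every array are given for each gene called higher, the largest fall and the brightest member of each role, and genes with opposite calls, 23 in all, and for some further members chosen after their values were seen. Members and lists were chosen with earlier results of these data known. Plots used matplotlib 3.10.9 in Python 3.11.15.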

Additional observations from a re-analysis of the deposited data

Results flagged for a closer look

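6 of 71 groups of 4 values checked held a sample far from the other 3 by the gap to the nearest of them over the range (Dixon's criterion), where chance gives about 1 in 20. Sv2b had a low immunoprecipitate in replicate 4, at 5.72 on the log2 scale, and a high unbound value in replicate 1, at 10.06. Unc13c was high in immunoprecipitate replicate 1, at 9.20, and Vamp2 in unbound replicate 4, at 14.49. The difference between Cplx1 and Cplx2, relative to the unbound mean, was 1.67 in immunoprecipitate replicate 1, and that between Bsn and Pclo was -0.33 there.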

How the results depend on the processing

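The scale between groups changed the counts most. Median centring gave 16 member probe sets higher and 31 lower, 7 genes higher and 16 lower, and among the other release-cycle genes 7 higher and 5 lower. Quantile normalization gave 19 and 34 probe sets, 8 and 20 genes, and 6 and 14 release-cycle genes. The poly-A shift gave 0 and 113 probe sets, 0 and 60 genes, and 1 and 47 release-cycle genes. Higher member probe sets numbered 8 with no filter and 8 with no fold threshold, and higher genes 2, 4 and, with the mean of probe sets, 4. Leaving out arrays gave 1 to 2 member genes higher and 29 to 32 lower, 5 to 6 probe sets higher and 54 to 60 lower, and 2 to 3 release-cycle genes higher and 27 to 31 lower. Signs turned after median centring for Stx1a (0.53), Sv2a (0.25), Syp (0.35), Syt11 (0.59) and Vamp2 (0.66), after quantile normalization for Snap47 (-0.12) and Stx1a (0.15), on the poly-A controls for Snap47 (-1.94) and Syt5 (-0.055), with the mean of probe sets for Rims3 (0.25), Snap47 (-0.010), Vamp2 (0.54) and the pair Syngr1 and Syngr3 (0.17), and without unbound replicate 1 for Snap47 (-0.027, with a range over left-out arrays to 0.073). The number of paralogue pairs past the test, 0, became 8 with the mean of probe sets and ran from 0 to 8 when an array was left out, with 8 without immunoprecipitate replicate 1 and 8 without unbound replicate 2, each 8 including the 2 pairs with a gene under the minimum. Over the 11 other pairs, a choice made after seeing the data, 0 passed. With the replicate block the same 33 member genes were called, 32 of them lower, and 0 pairs passed, since a paired exact test cannot go below 0.125. A constant shift moves all genes alike by construction, and the cause of the other differences was not tested. Signal near the minimum limits Unc13a, Snap23 and Snap29.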
